A study of Mus musculus with 6 samples.

Results

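Imprinted genes with a part in body growth around and after birth, 10 in number, were followed in RNAseq of mouse hearts. They are *Igf2*, *H19*, *Dlk1*, *Meg3*, *Mest*, *Peg3*, *Plagl1*, *Cdkn1c*, *Grb10* and *Igf2r*, chosen by name. All 10 of 10 were found among the 16018 genes of the deposited table, and all 10 were among the 16016 genes tested. The hearts came from 3 female KO_b/c mice, labelled NBCe1-B/C KO, and 3 female WT mice, all between 4 and 5 weeks of age and on a C57BL/6J background. KO_b/c mice lack the B and C variants of the sodium bicarbonate cotransporter NBCe1, the product of *Slc4a4*, in every tissue and from conception, so that effects arising within the heart and outside it cannot be told apart. Each genotype was bred from heterozygous parents, and each library is labelled as a separate mouse. The genes were read here as a per-library measure of growth stage. The age is given as a range for all mice and not for each mouse. Differences in age between libraries thus cannot be told apart from other differences in growth stage.

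An imprinted gene is transcribed mainly or only from the copy inherited from a particular parent, because DNA methylation set in the germ line marks the parental copies differently. Many imprinted genes act on growth: as a rule, those read from the father's copy promote it and those read from the mother's copy restrain it. *Igf2*, *Dlk1*, *Mest*, *Peg3* and *Plagl1* are read from the father's copy, and *H19*, *Meg3*, *Cdkn1c*, *Igf2r* and, outside the brain, *Grb10* from the mother's. Several of these genes are abundant in the fetus and are turned down together in many organs as a young animal approaches its adult size, which is why their level can serve as a sign of growth stage.

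For 4 of the members, a microRNA hairpin within the transcript was chosen by name. *Meg3* also shares 80 exon bases with *Mir1906-1*, a further microRNA gene of its strand, which is not shown. The mature sequences of the chosen hairpins are shown because they tie their host transcripts to small RNAs that the libraries did not measure. They are from RefSeq (GRCm38.p6), 5′ to 3′, and the capitals mark the seed, bases 2 to 8, with which a microRNA pairs with its targets.
miR-483-5p, within *Igf2*, chr7:142654968-142654989, minus strand: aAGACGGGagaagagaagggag
miR-483-3p, within *Igf2*, chr7:142654932-142654952, minus strand: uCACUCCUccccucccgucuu
miR-675-5p, within *H19*, chr7:142577112-142577133, minus strand: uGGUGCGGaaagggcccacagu
miR-675-3p, within *H19*, chr7:142577078-142577099, minus strand: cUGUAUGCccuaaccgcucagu
miR-770-5p, within *Meg3*, chr12:109563710-109563731, plus strand: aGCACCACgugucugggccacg
miR-770-3p, within *Meg3*, chr12:109563744-109563765, plus strand: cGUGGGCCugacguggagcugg
miR-335-5p, within *Mest*, chr6:30741314-30741336, plus strand: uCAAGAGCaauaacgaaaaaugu
miR-335-3p, within *Mest*, chr6:30741354-30741375, plus strand: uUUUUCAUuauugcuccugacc
The 8 seeds differ from each other, and 0 other mature mouse microRNAs in the RefSeq table share any of them. The hairpins differ in how they lie in their hosts. The stretch of miR-675 is exonic in 3 of the 4 *H19* transcripts that span it, and that of miR-770 in 1 of 4 of *Meg3*, whereas miR-483 and miR-335 are intronic in all 7 spanning transcripts of *Igf2* and of *Mest*.

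The 6 libraries held between 41364857 and 49100802 reads on genes, and the values below are normalized counts, that is, reads scaled by the size factor of their library. *Slc4a4*, whose row joins all variants of the gene, had 264, 945 and 269 normalized counts in the KO_b/c libraries and 675, 822 and 789 in the WT libraries (replicates 1, 2 and 3 in this order, here and in what follows). The library labelled KO_b/c replicate 2 was thus above every WT library, against its label. The paper describes NBCe1-B as the sole NBCe1 variant of the heart. This library was kept in all values and counts below unless stated otherwise. The heart was recognisable in every library, with cardiomyocyte markers summing to 2316290 to 2438430 normalized counts in WT and 2651700 to 2959840 in KO_b/c. *Myh6* weighs most in these sums, with a mean of 792350 in WT and 1159410 in KO_b/c. Of the 8 markers, *Myh6*, *Ryr2* and *Ttn* lay wholly above WT and *Tnni3*, *Myl2* and *Myl3* wholly below (75.0% against 30.2% of all genes). The longest transcripts of those above have 6113, 16814 and 106824 nucleotides, and of those below 912, 889 and 1125. For those above, log2 fold changes were 0.55, 0.61 and 0.47, and 0.42, 0.32 and 0.35 with length and GC content adjusted for as described below. For those below they were -0.13, -0.18 and -0.23, and 0.06, -0.01 and -0.07 with the adjustment. The median log2 fold change of the 8 was 0.03, or 0.17 with the adjustment. How far length accounts for the split was not tested. Markers of tissue carried along with the heart varied between libraries within each genotype: 7 adipocyte markers summed to 1075 in KO_b/c replicate 1 and to between 2976 and 7649 in the other libraries, and 8 epicardial and mesothelial markers to 1263 to 2419 in KO_b/c and 1234 to 3203 in WT. In whole hearts, fewer cells of a type and less RNA per cell cannot be told apart.

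The imprinted growth genes did not separate the genotypes as a group. *Igf2r*, which clears IGF2, was the only member of the 10 whose 3 KO_b/c libraries all lay above the 3 WT libraries, and 0 members had all KO_b/c libraries below. Over all genes, 15.6% lay wholly above and 14.6% wholly below, 30.2% in either direction, so the members did not exceed that background. No member passed the threshold in limma (adjusted p under 0.05), as no gene did among the 16016 tested (0.0% called). At an unadjusted p under 0.05, 1 member was higher and 1 lower, where 13.0% and 10.5% of all genes were. DESeq2, run on the read counts recovered from the table, called *Igf2r* higher and no other member, that is 1 of 10 where 6.15% of all genes were called higher and 3.76% lower, 9.91% in all. The median log2 fold change of KO_b/c over WT was 0.17 for the members and -0.0043 for all genes, with 8 members above 0 and 2 below.

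**Figure D1:**
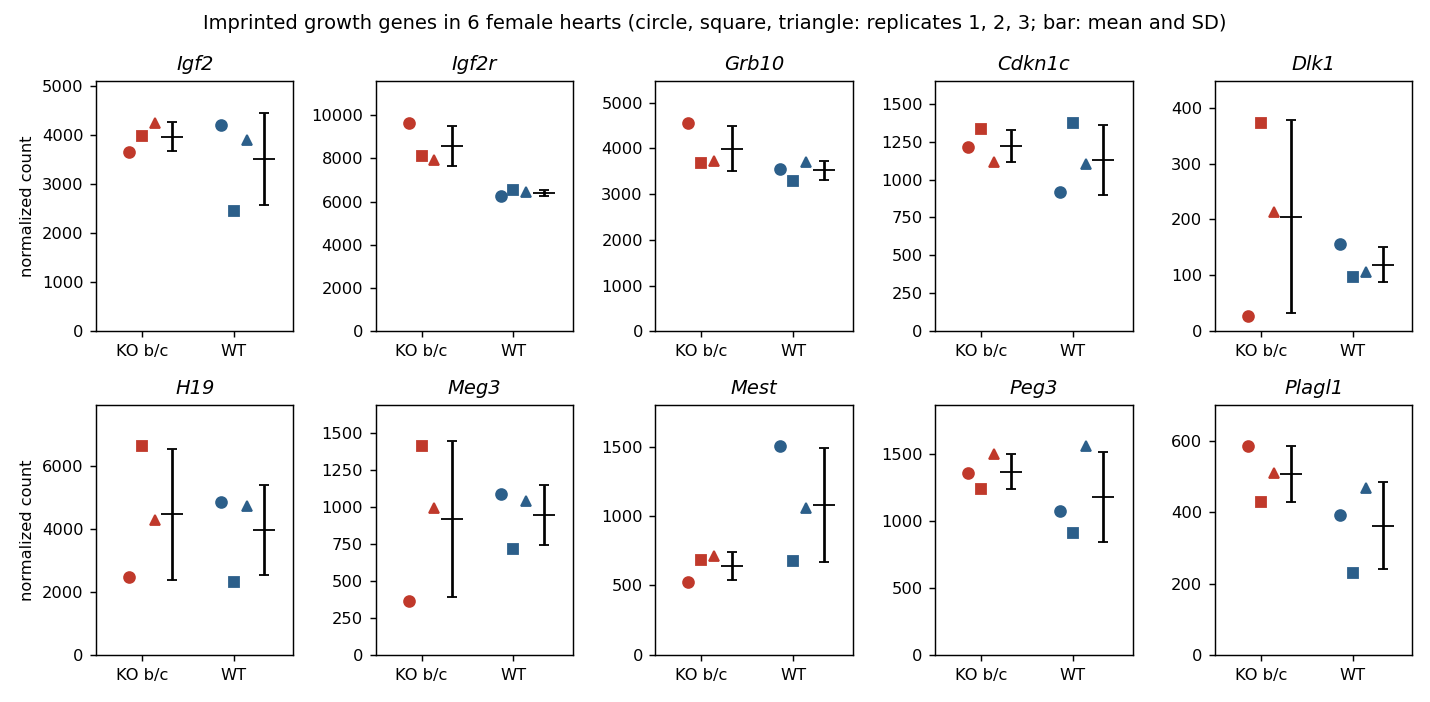
Normalized counts (y axis, each panel from 0) of the 10 imprinted growth genes in the 3 KO_b/c libraries (red) and the 3 WT libraries (blue), with circles, squares and triangles for replicates 1, 2 and 3 and a bar for the mean and SD. Only the Igf2r panel has the groups apart, from 7931 to 9651 in KO_b/c and from 6237 to 6541 in WT, while the Dlk1, Meg3 and H19 panels show the widest spread within KO_b/c.

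*Igf2* (chr7:142650766-142666816 in GRCm38, minus strand) encodes insulin-like growth factor 2, a growth factor of fetal life. It had 3662, 3974 and 4249 normalized counts in KO_b/c and 4196, 2441 and 3897 in WT. The KO_b/c libraries lay within a narrow range and WT replicate 2 lay far below all others. There was no significant difference (WT: 3511 ± 939, KO_b/c: 3962 ± 294 normalized counts, mean ± SD, n = 3 each, log2 fold change 0.21, SE 0.18, adjusted p = 0.520, limma). The 95% interval of the log2 fold change ran from -0.20 to 0.62, and without WT replicate 2 the estimate was -0.0322. In the annotation used here 62.8% of the exon bases of *Igf2* are shared with a readthrough gene model of the same strand, *Gm49394*, which is not in the table, so how reads there were assigned decides part of this count.

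*Igf2r* (chr17:12682406-12769664, minus strand, 49 merged exons) encodes the cation-independent mannose 6-phosphate receptor, which carries IGF2 to the lysosome and thereby removes it. It had 9651, 8123 and 7931 normalized counts in KO_b/c and 6237, 6541 and 6421 in WT. The WT libraries were nearly level and every KO_b/c library stood above them. The difference was larger than the SD within either genotype (WT: 6399 ± 153, KO_b/c: 8568 ± 942, n = 3 each, log2 fold change 0.42, SE 0.08) and missed the threshold in limma (adjusted p = 0.0815) and in edgeR (adjusted p = 0.0805), whereas DESeq2 called it (adjusted p = 0.000598). The adjusted p of limma and that of edgeR were shared with other genes, *Tssc4*, *Nppb* and *Kcnj2* among them, and do not set *Igf2r* apart. With 3 animals against 3, the design allows an exact two-sided permutation p of 0.1 at the smallest, which is what *Igf2r* gave. Without the library labelled KO_b/c replicate 2 the log2 fold change was 0.45 (limma adjusted p = 0.128).

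The estimate for *Igf2r* moved with a correction for transcript length. Over 15978 genes, the log2 fold change tended to be larger where the longest transcript was longer (Spearman rho = 0.45, genes not being independent of each other), and *Igf2r* has a longest transcript of 8887 nucleotides against a median of 3188 over all genes and 4892 over the members. After each library's dependence on length and GC content was fitted and removed, the log2 fold change of *Igf2r* was 0.19 (limma adjusted p = 0.301), and DESeq2 with the same correction no longer called it (adjusted p = 0.222) or any other member (2.15% of genes called). The 3 KO_b/c libraries still lay above the 3 WT libraries after the correction. Whether the length dependence is technical was not tested.

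*Igf2r* was also set against *M6pr*, the cation-dependent receptor for the same sugar tag, which does not bind IGF2. *M6pr* had 2710, 2913 and 2827 normalized counts in KO_b/c and 2893, 3017 and 2917 in WT. Per kilobase of transcript, the ratio of *Igf2r* to *M6pr* was 1.19, 0.934 and 0.939 in KO_b/c and 0.722, 0.726 and 0.737 in WT. The groups did not overlap, with a log2 difference of 0.48 in the ratio (exact permutation p = 0.1, n = 3 each). The longest transcript of *M6pr* is 2976 nucleotides, and after the correction for length and GC content the log2 difference was 0.22.

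The promoter of *Igf2r* is shown because *Igf2r* is the member that stood apart, and because it holds the palindrome TCACGTGA at more than a single place. This form of the CACGTG box is known as the element that TFEB and TFE3 bind, transcription factors of lysosomal genes. The stretches are from RefSeq (GRCm38.p6, minus strand), with the palindrome in capitals.
*Igf2r*, chr17:12769737-12769766: gaacgaggacgTCACGTGAgcaggaggcgg
*Igf2r*, chr17:12769707-12769725: gccgactcaggTCACGTGA
The palindromes begin 49 and 8 bases before the RefSeq start (chr17:12769706), which are 91 and 50 bases before the GENCODE start given above. Among the stretches of 250 bases before 32851 RefSeq starts, 258 (0.785%) held TCACGTGA and 11 (0.0335%) held it at least 2 times, and 1978 (6.02%) held the shorter CACGTG, which TCACGTGA contains; being palindromes, both read the same on either strand. Promoters were found for 8 of the 10 members, 15 such stretches in all. TCACGTGA was in 1 of them, that of *Igf2r*, and CACGTG in 2, that of *Igf2r* and 1 of *Plagl1*. The motif was looked for after the sequence had been seen, and a match is a run of letters, not a measured binding site.

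*Grb10* (chr11:11930508-12038683, minus strand) encodes an adaptor that binds the activated insulin and IGF1 receptors and damps their signal. It had 4561, 3683 and 3728 normalized counts in KO_b/c and 3548, 3293 and 3710 in WT. KO_b/c replicate 1 stood above the rest, and the other libraries were close together. The genotypes did not differ significantly (WT: 3517 ± 210, KO_b/c: 3991 ± 494, n = 3 each, log2 fold change 0.18, SE 0.09, adjusted p = 0.287, limma). The estimate was 0.0772 without KO_b/c replicate 1 and 0.070 after the correction for length and GC content.

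*Cdkn1c* (chr7:143458339-143461050, minus strand) encodes an inhibitor of cyclin-dependent kinases that holds cells out of division. It had 1217, 1331 and 1115 normalized counts in KO_b/c and 915, 1374 and 1102 in WT. It was the steadiest member but for *Grb10*, with its highest and its lowest value both in WT. No significant difference was found (WT: 1130 ± 231, KO_b/c: 1221 ± 108, n = 3 each, log2 fold change 0.13, 95% interval -0.19 to 0.45, adjusted p = 0.632, limma). An antisense gene model, *Gm44732*, covers 30.7% of its exon bases and is not in the table.

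*Mest* (chr6:30723547-30748465, plus strand) encodes a membrane protein of the alpha/beta hydrolase fold and is abundant in growing mesodermal tissues. It had 527, 682 and 714 normalized counts in KO_b/c and 1501, 677 and 1060 in WT. WT replicates 1 and 3 were the highest, while WT replicate 2 lay among the KO_b/c libraries and kept the groups from separating. It had the largest estimate downwards among the members (WT: 1079 ± 412, KO_b/c: 641 ± 100, n = 3 each, log2 fold change -0.69, SE 0.25, unadjusted p = 0.0245, adjusted p = 0.152, limma). DESeq2 did not call it with all 6 libraries (adjusted p = 0.125) and did when WT replicate 2 was left out (log2 fold change -0.996, adjusted p = 6.6e-05). In limma the log2 fold change was -0.41 without WT replicate 1, -0.99 without WT replicate 2 and -0.74 without the library labelled KO_b/c replicate 2. *Copg2*, on the opposite strand, covers 23.1% of the exon bases of *Mest*; it had 2346, 2033 and 2065 normalized counts in KO_b/c and 1760, 1873 and 2038 in WT, an order unlike that of *Mest*.

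*Plagl1* (chr10:13060504-13131694, plus strand) encodes ZAC1, a zinc finger transcription factor that arrests the cell cycle and is known to act on other imprinted genes. It had 585, 428 and 510 normalized counts in KO_b/c and 391, 229 and 467 in WT. The KO_b/c libraries were in the upper part of the range, and WT replicate 3 lay between them. There was no significant difference (WT: 362 ± 122, KO_b/c: 507 ± 78.3, n = 3 each, log2 fold change 0.54, SE 0.24, adjusted p = 0.224, limma). The estimate was 0.24 without WT replicate 2.

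*Peg3* (chr7:6703892-6730431, minus strand) encodes a large zinc finger protein tied to growth and to maternal behaviour. It had 1362, 1242 and 1503 normalized counts in KO_b/c and 1078, 912 and 1559 in WT. WT held both the highest and the lowest library. The genotypes did not differ significantly (WT: 1183 ± 336, KO_b/c: 1369 ± 131, n = 3 each, log2 fold change 0.24, 95% interval -0.16 to 0.64, adjusted p = 0.438, limma). The estimate was 0.0173 after the correction for length and GC content, 0.0741 without WT replicate 2 and 0.46 without WT replicate 3.

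*H19* (chr7:142575529-142578143, minus strand) is a long noncoding RNA made from the mother's copy of the *Igf2* region, and is among the most abundant RNAs of fetal mesoderm. It had 2484, 6618 and 4295 normalized counts in KO_b/c and 4857, 2325 and 4716 in WT. KO_b/c held the highest library and WT the lowest. No significant difference was found (WT: 3966 ± 1423, KO_b/c: 4466 ± 2072, n = 3 each, log2 fold change 0.14, SE 0.37, adjusted p = 0.862, limma). The direction rested on a library of either genotype, with a log2 fold change of -0.20 without the library labelled KO_b/c replicate 2 and -0.21 without WT replicate 2.

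*H19* and *Igf2* share enhancers and a methylated control region that lets each parental copy use them for only a member of the pair, so their ratio was also taken. Per kilobase, *H19* over *Igf2* was 1.40, 3.44 and 2.09 in KO_b/c and 2.39, 1.97 and 2.5 in WT. The groups overlapped (log2 difference -0.08, exact permutation p = 0.9, n = 3 each). Without the library labelled KO_b/c replicate 2, which had the highest ratio, the log2 difference was -0.41, and with the correction for length and GC content it was 0.08.

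*Dlk1* (chr12:109452823-109463336, plus strand) encodes a transmembrane protein related to the Notch ligands that keeps precursor cells, preadipocytes among them, from differentiating. It had 27.8, 373 and 213 normalized counts in KO_b/c and 156, 96.7 and 105 in WT. The KO_b/c libraries took the lowest and the 2 highest places, with a 13.4-fold span over the 6 libraries, the widest of the members. The lowest value stood for 28 reads. There was no significant difference (WT: 119 ± 31.9, KO_b/c: 205 ± 173, n = 3 each, log2 fold change 0.17, SE 0.79, adjusted p = 0.923, limma). DESeq2, which compares mean counts rather than mean logs, gave a log2 fold change of 0.78 (adjusted p = 0.626). In limma the log2 fold change was -0.58 without the library labelled KO_b/c replicate 2, -0.18 without KO_b/c replicate 3 and 1.27 without KO_b/c replicate 1. Without replicate 1 the groups no longer overlapped, but the threshold was still missed (limma adjusted p = 0.176).

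*Meg3* (chr12:109541001-109571726, plus strand) is a long noncoding RNA made from the mother's copy of the *Dlk1* region. It had 362, 1409 and 990 normalized counts in KO_b/c and 1089, 714 and 1038 in WT. As with *Dlk1*, KO_b/c replicate 1 was the lowest and the library labelled KO_b/c replicate 2 the highest, with WT between them. The genotypes did not differ significantly (WT: 947 ± 203, KO_b/c: 920 ± 527, n = 3 each, log2 fold change -0.23, SE 0.42, adjusted p = 0.790, limma). The estimate was -0.64 without the library labelled KO_b/c replicate 2 and 0.34 without KO_b/c replicate 1. It was -0.51 after the correction for length and GC content and -0.04 in both DESeq2 and edgeR.

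**Figure D2:**
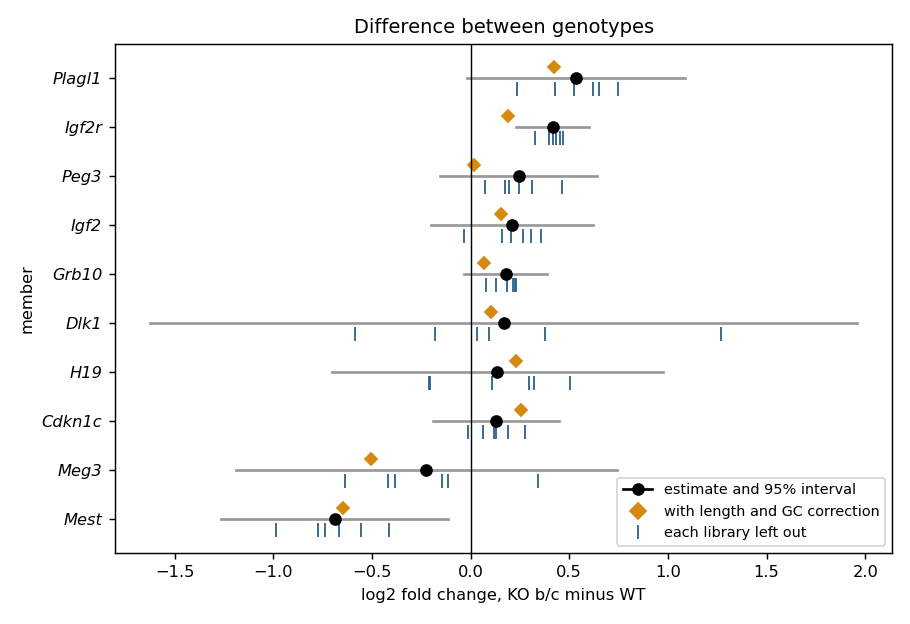
Log2 fold change of KO_b/c over WT (x axis) for each imprinted growth gene (y axis): black points with grey lines give the limma estimate and its 95% interval, orange diamonds the estimate after correction for length and GC content, and blue ticks the estimates after dropping any single library. The interval of Igf2r, from 0.23 to 0.60, and that of Mest, from -1.27 to -0.11, lie off 0 before adjustment for the number of genes, while the ticks of Dlk1 run from -0.58 to 1.27.

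Read by library, the members gave no common order. On the log2 scale, each member's deviation from its own mean over the 6 libraries was taken, and the median over the 10 members was 0.0285, 0.124 and 0.162 in KO_b/c and 0.0583, -0.311 and 0.122 in WT. Apart from WT replicate 2 the medians lay close together, and the genotypes overlapped. WT replicate 2 was the lowest library for 5 of 10 members (*Igf2*, *H19*, *Peg3*, *Plagl1* and *Grb10*) and above the mean for 1, *Cdkn1c*.

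KO_b/c replicate 1 was pulled in opposite directions. It was the highest library for *Plagl1*, *Grb10* and *Igf2r* and the lowest for *Dlk1*, *Meg3* and *Mest*, with deviations from 0.48 down to -2.11. The library labelled KO_b/c replicate 2 was the highest for *H19*, *Dlk1* and *Meg3*. WT replicate 1 was the highest for *Mest*, with a deviation of 0.89, and the lowest for *Cdkn1c* and *Igf2r*.

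**Figure D3:**
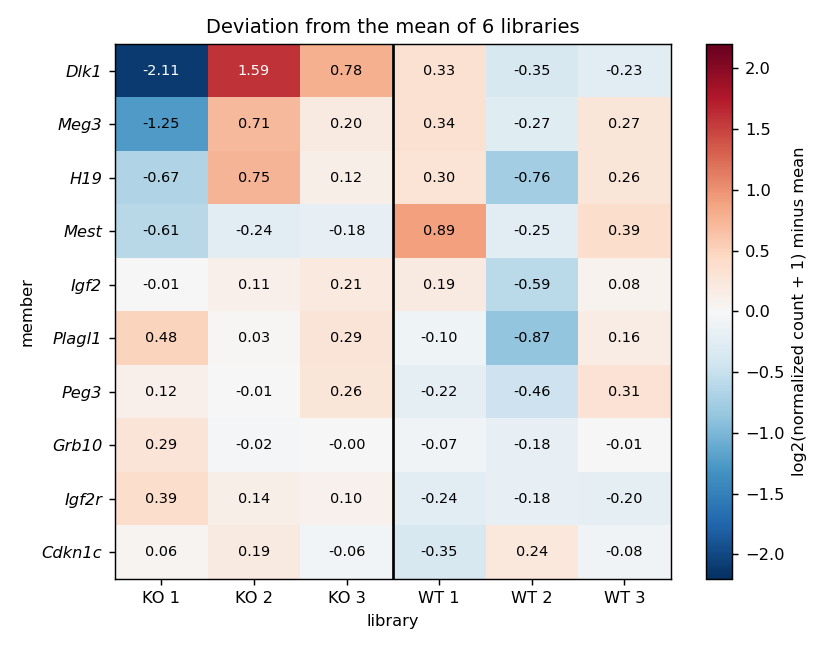
Deviation of log2(normalized count + 1) from each gene's mean over the 6 libraries (color scale and printed values), with members as rows and libraries as columns, KO_b/c left and WT right of the line. Dlk1 runs from -2.11 to 1.59 within KO_b/c, WT replicate 2 is below the mean in 9 of 10 rows, and only the Igf2r row keeps 1 sign in each genotype.

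The abundance of the members was compared per kilobase of the longest transcript. Which annotated transcripts the hearts made was not examined, and the order depends on these lengths. For *Meg3*, the longest of 11 transcripts has 14548 nucleotides. *H19* came first, with 1844 ± 706 normalized counts per kilobase over the 6 libraries, and was above the next member in 6 of 6 libraries. *Igf2r* (842 ± 150), *Igf2* (791 ± 142) and *Grb10* (742 ± 84.5) followed without a stable order: *Igf2r* was above *Igf2* in 3 of 6 libraries and *Igf2* above *Grb10* in 4 of 6. *Cdkn1c* (618 ± 88.8) exceeded *Mest* (323 ± 135) in 5 of 6, and *Mest* exceeded *Peg3* (147 ± 28.7) in 6 of 6. *Plagl1* (82.7 ± 23.1) and *Meg3* (64.2 ± 24.6) changed places, each above the other in 3 of 6 libraries, and *Dlk1* (34.8 ± 25.9) was the scarcest, below *Meg3* in 6 of 6.

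The genes whose pattern over the 6 libraries was most like that of a member were sought among the 11932 genes averaging 100 normalized counts or more, by Pearson's r of log2(normalized count + 1). These r are the highest of many, over libraries of both genotypes, and are given as descriptions. *Mest* was nearest to *Kif11* (r = 0.996), a motor of the mitotic spindle, *Bub1b* (0.996), of the spindle checkpoint, *Racgap1* (0.995), of cell cleavage, *Anxa1* (0.994), a phospholipid-binding protein, and *Cdk1* (0.994), the kinase that drives cells into mitosis. *Mest* was singled out after its values were seen, and how often such genes occur among all genes was not examined. With WT replicates 1 and 3, the libraries farthest from the median of *Mest*, left out, r was between 0.923 and 0.997 for the 5 genes.

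*Cdk1* had 59.5, 81.7 and 96.7 normalized counts in KO_b/c and 389, 101 and 195 in WT, and *Racgap1* had 111, 179 and 193 in KO_b/c and 644, 183 and 321 in WT. As for *Mest*, WT replicate 1 was the highest, WT replicate 3 the next and KO_b/c replicate 1 the lowest. *Anxa1* kept that order over a narrower range, from 1202 to 1708. *Cdkn1c*, the inhibitor of cell division, was lowest in WT replicate 1, where *Mest* and these genes were highest.

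The nearest genes were also found for *Dlk1*, *Meg3* and *H19*, the members with the widest spread. For *Dlk1* these were *Pml* (r = 0.974), *Fam149a* (0.970), *Arhgap19* (0.969), *Zfp97* (0.966) and *P3h4* (0.961). For *Meg3* they were *Plvap* (0.989), *6820408C15Rik* (0.989), *Whamm* (0.972), *Sfi1* (0.969) and *Tpsb2* (0.965), and for *H19* *Mboat2* (0.979), *Nfatc2ip* (0.977), *Mpg* (0.969), *Meaf6* (0.960) and *Dynlt1b* (0.951). Their range was much narrower than that of the member: *Pml* ran from 500.2 to 639.9 normalized counts and *Plvap*, of the fenestrated endothelium, from 617 to 928. For *Dlk1*, with its farthest libraries, those labelled KO_b/c replicates 1 and 2, left out, r was between 0.752 and 0.957. Without KO_b/c replicate 1 and WT replicate 2, the farthest for *Meg3* and *H19*, it was between 0.6025 and 0.979 and between 0.870 and 0.993.

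Some skeletal muscle genes had the same extreme libraries as *Dlk1* and *Meg3*. *Myh8*, the perinatal skeletal myosin heavy chain, had 6.95, 2896 and 116 normalized counts in KO_b/c and 294, 147 and 611 in WT, and *Myh3*, the embryonic form, had 0.992, 316 and 2.66 in KO_b/c and 27.7, 16.6 and 56.7 in WT. *Tnnt3*, the troponin T of fast skeletal muscle, had 11.9, 802 and 60.3 in KO_b/c and 122, 65.5 and 188 in WT. In these 3 genes, the library labelled KO_b/c replicate 2 was the highest and KO_b/c replicate 1 the lowest, as for *Dlk1*, *Meg3* and, with the lowest place aside, *H19*. Of 10 skeletal muscle markers, 8 were in the table and *Myh4* and *Myog* were not. The library labelled KO_b/c replicate 2 was the highest for 6 of the 8 and KO_b/c replicate 1 the lowest for 4, and both held for 4 of the 8. *Myh2* was highest in WT replicate 3 and lowest in KO_b/c replicate 3, *Mylk4* was highest in KO_b/c replicate 1, and *Actn3*, *Neb* and *Mylk4* were lowest in WT replicate 1. With the library labelled KO_b/c replicate 2 set aside, *Myh8*, *Myh3* and *Tnnt3* were highest in WT replicate 3, *Meg3* in WT replicate 1 and *Dlk1* in KO_b/c replicate 3. The 8 markers summed to 9535 to 13165 in KO_b/c and 6443 to 7157 in WT, most of it from *Mylk4*, which the heart also expresses. The 3 genes were picked after their values were seen, and their part in the levels of *Dlk1*, *Meg3* and *H19* was not tested.

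**Figure D4:**
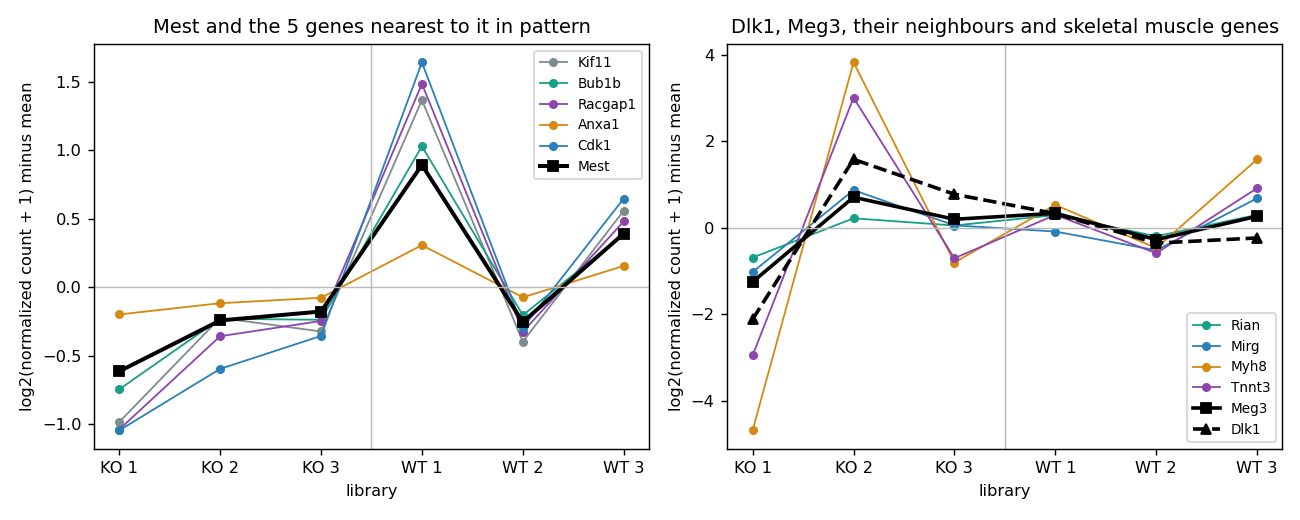
Deviation of log2(normalized count + 1) from each gene's mean (y axis) in the 6 libraries (x axis, KO_b/c left and WT right of the vertical line). On the left, Mest (black) and its 5 nearest genes all peak in WT replicate 1 and are lowest in KO_b/c replicate 1; on the right, Meg3 and Dlk1 (black), their neighbours Rian and Mirg, and the skeletal muscle genes Myh8 and Tnnt3 are all lowest in KO_b/c replicate 1, where Myh8 had 6.95 normalized counts. Not drawn is the neighbour Rtl1, lowest in WT replicate 2 (11.4 normalized counts, against 13.9 in KO_b/c replicate 1). Of 8 skeletal muscle markers, 4 were lowest in KO_b/c replicate 1.

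Genes that lie in the same imprinted regions as the members were then examined, 15 of 22 being in the table (*Ins2*, *Nctc1*, *Dio3*, *Klf14*, *Hymai*, *Phlda2* and *Slc22a2* were not). None passed in limma (0 of 15); 3 lay wholly above and 1 wholly below WT, 26.7% against 30.2% of all genes. In the *Igf2r* region, *Airn*, the noncoding RNA that silences neighbours on the father's copy, had 396, 367 and 375 normalized counts in KO_b/c and 284, 307 and 364 in WT (log2 fold change 0.26, adjusted p = 0.218, limma). Its KO_b/c libraries lay above WT, with WT replicate 3 close behind. *Slc22a3*, an organic cation transporter of the same region, had 441, 327 and 414 in KO_b/c and 159, 300 and 246 in WT (log2 fold change 0.78, limma adjusted p = 0.101, DESeq2 adjusted p = 0.0106, or 0.0451 with the correction for length and GC content). Per kilobase, *Airn* over *Igf2r* was 0.265, 0.292 and 0.306 in KO_b/c and 0.294, 0.303 and 0.366 in WT, with the groups overlapping (log2 difference -0.15, exact permutation p = 0.4, n = 3 each), and the difference was 0.21 with the correction.

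In the *Dlk1* region the noncoding *Rian*, which carries small nucleolar RNAs, had 403, 758 and 675 normalized counts in KO_b/c and 798, 568 and 801 in WT. *Mirg* and *Rtl1* were low, from 12.9 to 50.7 and from 11.4 to 62.0 normalized counts. KO_b/c replicate 1 was the lowest library for *Rian*, as for *Meg3*, and *Rian* over *Meg3* per kilobase was 1.32 to 1.43 in WT and 0.967 to 2.00 in KO_b/c, or 1.23 to 2.00 without the library labelled KO_b/c replicate 2. In the *Cdkn1c* region *Kcnq1ot1*, the silencing RNA, had 89.3, 231 and 138 normalized counts in KO_b/c and 195, 177 and 193 in WT. *Tssc4* there had 570, 602 and 580 in KO_b/c and 870, 740 and 726 in WT, the neighbour that lay wholly below (log2 fold change -0.41, limma adjusted p = 0.0815, DESeq2 adjusted p = 0.0081). With the correction for length and GC content its log2 fold change was -0.27 and DESeq2 no longer called it (adjusted p = 0.200). *Kcnq1* (log2 fold change 0.10), *Cd81* (0.05) and *Slc22a18* (-0.03) of that region overlapped between genotypes. Beside *Peg3*, *Zim1* had 178, 188 and 176 in KO_b/c and 117, 134 and 143 in WT (log2 fold change 0.46, adjusted p = 0.102, limma; 0.28 with the correction), and *Usp29* had between 3.07 and 17.5. *Ddc* (log2 fold change 0.10) and *Cobl* (-0.09), beside *Grb10*, and *Copg2* (0.18), beside *Mest*, overlapped too.

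Of 38 other imprinted genes 32 were in the table, and 0 passed in limma. Of these, 6 lay wholly above and 2 wholly below WT, 25.0% against the 30.2% of all genes, and their median log2 fold change was 0.07. DESeq2 called 4 of the 32 higher and 1 lower, where it called 6.15% and 3.76% of all genes. The largest estimates with no overlap were those of *Herc3*, a ubiquitin ligase (log2 fold change 0.38, DESeq2 adjusted p = 0.00605), and *Trappc9*, of the vesicle-tethering TRAPP complex (0.38, DESeq2 adjusted p = 0.00437). The lowest were those of *Commd1*, a regulator of copper and endosomal traffic (-0.29, DESeq2 adjusted p = 0.0121), and *Sgce*, a sarcoglycan (-0.16, DESeq2 adjusted p = 0.304). With the correction for length and GC content DESeq2 called neither *Herc3* (adjusted p = 0.0621) nor *Trappc9* (adjusted p = 0.0520), and still called *Commd1* (adjusted p = 0.0167).

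Genes that bind, cut or answer to IGF2 formed the next list, with 21 of 23 in the table (*Igfbp1* and *Igf2bp1* were not) and 0 past the threshold in limma. Of these, 5 lay wholly above WT and 1 wholly below, 28.6% in all against 30.2% of all genes, and the median log2 fold change was 0.27, or 0.18 after the correction for length and GC content. *Pappa*, a protease that frees IGFs from their binding proteins, had 56.6, 55.8 and 50.6 normalized counts in KO_b/c and 18.4, 21.8 and 41.2 in WT (log2 fold change 1.06, adjusted p = 0.104, limma). *Igf2bp2*, an RNA-binding protein that binds the *Igf2* message, had 318, 284 and 272 in KO_b/c and 217, 207 and 235 in WT (log2 fold change 0.40, adjusted p = 0.0985, limma). *Igfbp7*, a matrix protein of low affinity for IGFs, lay below WT (log2 fold change -0.27, limma adjusted p = 0.0834, DESeq2 adjusted p = 0.00844), and *Pcsk6*, a proprotein convertase, above it (0.29, DESeq2 adjusted p = 0.046). With the correction for length and GC content *Igfbp7* had a log2 fold change of -0.088, and DESeq2 called neither it (adjusted p = 0.650) nor *Pcsk6* (adjusted p = 0.182). Without the correction DESeq2 called 5 of the 21 higher and 1 lower, where it called 6.15% and 3.76% of all genes.

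A list of the juvenile growth programme, made of cell cycle and fetal growth genes, had 20 of 22 genes in the table and 0 past the threshold in limma. Log2 fold changes were below 0 for 14 of the 20 and the median was -0.21, with 2 genes wholly above and 4 wholly below WT (30.0% against 30.2% of all genes). The lowest were *Ccnb1*, the cyclin B1 of mitosis (log2 fold change -1.58, adjusted p = 0.101, limma), and *Ccna2*, cyclin A2 (-1.33, adjusted p = 0.120, limma). DESeq2 gave *Ccnb1* no adjusted p and did not call *Ccna2* (adjusted p = 0.0685). With the correction for length and GC content DESeq2 called *Ccnb1* (adjusted p = 0.0083) and not *Ccna2* (adjusted p = 0.170). Without the correction it called 0 of the 20 higher and 1 lower, where it called 6.15% and 3.76% of all genes. The highest with no overlap were *Igf2bp2*, given above, and *E2f3*, a transcription factor of the cell cycle (0.22, adjusted p = 0.233, limma). By library, the median deviation of the list was -0.203, -0.160 and -0.0881 in KO_b/c and 0.329, -0.169 and 0.106 in WT: WT replicates 1 and 3 were above 0, as for *Mest*, and WT replicate 2 lay with the KO_b/c libraries.

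Fetal and adult isoforms of heart muscle were counted beside the members. Among 10 fetal heart genes, 1 lay wholly above and 1 wholly below WT (20% against 30.2% of all genes). The median log2 fold change was -0.14 and turned to 0.22 without KO_b/c replicate 1, to 0.0251 without WT replicate 3 and to 0.0117 with sample quality weights. *Hcn4*, the pacemaker channel, was above (0.69, limma adjusted p = 0.0921, DESeq2 adjusted p = 0.00302) and *Nppb*, the B-type natriuretic peptide, below (-1.49, limma adjusted p = 0.0815, DESeq2 adjusted p = 0.0135). With the correction for length and GC content DESeq2 called *Hcn4* (adjusted p = 0.0379) but not *Nppb* (adjusted p = 0.0905).

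Among 10 adult heart genes, 4 lay above and 3 below (70.0% against 30.2% of all genes), with a median log2 fold change of 0.07. The largest log2 fold changes were those of *Kcnj2*, an inward rectifier potassium channel (0.56, limma adjusted p = 0.0815), and *Myh6*, the adult cardiac myosin heavy chain (0.55, limma adjusted p = 0.119). DESeq2 called *Kcnj2* (adjusted p = 0.000196) and *Myh6* (adjusted p = 4.6e-06). It still called both with the correction for length and GC content (adjusted p = 0.00499 and 0.000766). The smallest were those of *Cox8b* (-0.29, limma adjusted p = 0.0869) and *Cox7a1* (-0.21, limma adjusted p = 0.113), subunits of cytochrome c oxidase with short transcripts of 360 and 485 nucleotides, and these were -0.094 and -0.0127 after the correction for length and GC content. DESeq2 called *Cox8b* (adjusted p = 0.0101) and *Cox7a1* (adjusted p = 0.0350) without the correction and neither with it (adjusted p = 0.596 and 0.969).

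The median deviation of the fetal list was lowest in KO_b/c replicate 1 (-0.332) and WT replicate 1 (-0.333), the libraries with the lowest and the highest *Mest*. The atrial genes of the list were lowest in the same libraries. *Nppa*, the atrial natriuretic peptide, had 8086, 41543 and 48535 normalized counts in KO_b/c and 10666, 47073 and 61038 in WT, and *Myl4*, the atrial light chain, had 3694, 15317 and 18592 in KO_b/c and 6617, 19000 and 23583 in WT. The part of atrial tissue in the fetal list and in the members was not tested.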

How the data were processed

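RNAseq of 6 hearts was analysed from the authors' deposited table of normalized counts, a signal made by dividing read counts by a size factor for each library. Per the labels, total RNA was purified on a column and read in pairs on an Illumina HiSeq. The submitters' processing notes name Trimmomatic 0.36, STAR 2.5.2b, featureCounts of Subread 1.5.2, DESeq2 and GRCm38. The annotation, strand setting and treatment of shared reads are not given in the sources used here. In each library, 100% of the values in the deposited table were a whole number of reads times a constant (tolerance 1e-06), which gave back the read counts.

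The labels gave genotype and replicate number. Log2(normalized count + 1) was compared with limma 3.58.1 (R 4.3.3) and its variance trend. The 16016 genes averaging 10 or more were tested two-sided, p-values were adjusted over all of them by Benjamini-Hochberg, and the threshold was 0.05. Fold changes on this scale understate those of low genes. Exact permutation tests, two-sided, served for single genes and ratios. The alternatives were the count tests of DESeq2 1.42.0 and edgeR 4.0.16 on recovered reads, leaving out each library, pseudocounts of 0.5 and 5, no filter, a mean of at least 50, the same total in each library, sample quality weights, quantile normalization, a fit without the variance trend, a block for the replicate number, and a spline correction (5 degrees of freedom) for transcript length and GC content. DESeq2 with that correction and DESeq2 with each library left out were added after seeing the data. The fitting steps were tested on simulated data. Adjusted p-values that DESeq2 left out stayed out of its counts.

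Positions are from GENCODE M21 (GRCm38), and sequences from RefSeq. Each member is named with its value in every library. Of each other list, up to 4 genes are named, those with the largest and smallest fold change among genes whose groups did not overlap, and all region neighbours in the table. Members and lists were chosen with earlier results of these data known. P-values of the fitted tests set the difference between genotypes against the spread between mice of a genotype. That spread is estimated from these 6 mice, with information shared across genes.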

Additional observations from a re-analysis of the deposited data

How the results depend on the processing

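No member passed in limma under any of its settings, or in edgeR. The log2 fold changes of the 10 members under 25 alternatives gave 250 values, of which 224 kept their direction and side of the threshold, 16 turned direction and 10 passed it, all of these under DESeq2. In DESeq2 on the recovered reads, 1587 genes and 1 member passed, and with the length and GC correction 343 genes and 0 members. With a library left out, limma called between 0 and 3 genes, the 3 without the library labelled KO_b/c replicate 2, and 0 members, and DESeq2 called 776, 1195 and 1490 genes without KO_b/c replicates 1, 2 and 3 and 427, 1419 and 1118 genes without WT replicates 1, 2 and 3, and between 1 and 3 members: *Igf2r* each time, *Mest* without WT replicate 2 and *Peg3* and *Plagl1* without WT replicate 3. Members whose groups did not overlap numbered between 1 and 4 with a library left out: *Dlk1* joined *Igf2r* without KO_b/c replicate 1, *Plagl1* and *Grb10* without the library labelled KO_b/c replicate 2, *Cdkn1c* and, below WT, *Mest* without WT replicate 2, and *Peg3*, *Plagl1* and *Grb10* without WT replicate 3; fewer libraries make separation easier. The share of all genes whose groups did not overlap with a library left out was not counted. These numbers of members therefore have no background, as the 30.2% of all genes holds for all 6 libraries. The count of members has no value under edgeR and DESeq2. The median log2 fold change of the members ran from 0.0541 to 0.2965 with a library left out and was 0.10 with the same total in each library, which moved the median of all genes to -0.0766. The direction of a member turned in these cases, and the cause was not tested beyond the library named: *Meg3* with sample quality weights (0.0987) and without KO_b/c replicate 1 (0.3424, in DESeq2 0.3386), and in DESeq2 without WT replicate 1 (0.0721) or 3 (0.0296); *Peg3* in DESeq2 with the length and GC correction (-0.0073); *H19* without the library labelled KO_b/c replicate 2 (-0.2040, in DESeq2 -0.2279) and without WT replicate 2 (-0.2115, in DESeq2 -0.0980); *Dlk1* without the library labelled KO_b/c replicate 2 (-0.5835) or KO_b/c replicate 3 (-0.1799); *Cdkn1c* without WT replicate 1 (-0.0153, in DESeq2 -0.0204); and *Igf2* without WT replicate 2 (-0.0322, in DESeq2 -0.0288). With a library left out, limma estimates ran from -0.0322 to 0.3585 for *Igf2*, from -0.2115 to 0.5027 for *H19*, from -0.5835 to 1.2666 for *Dlk1*, from -0.636 to 0.3424 for *Meg3* from -0.0153 to 0.278 for *Cdkn1c*, from 0.0741 to 0.4609 for *Peg3* and from -0.9877 to -0.4138 for *Mest*. With the replicate number as a block, 0 genes and 0 members passed, and the median of the members stayed at 0.1724. Whether same-numbered libraries share more than a number is not known. Their deviations from the genotype means correlated at 0.227, 0.072 and -0.029, and those of differently numbered libraries at -0.183 to 0.155. With 3 libraries per genotype there are too few to decide it. Depth limits *Dlk1* most, with 28 reads in its lowest library and a counting error of 18.9% there, against 1.28% to 6.74% in the lowest library of the other members.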
